A study of Mus musculus with 6 samples.

Results

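The genes described here are 54 named genes of cytosolic protein synthesis, of 27179 genes with deposited counts: 20 aminoacyl-tRNA synthetases, 2 scaffold proteins of the synthetase complex, 21 initiation factors, 2 eIF4E-binding proteins, 7 elongation genes and 2 termination factors. They were listed by name, with earlier results of these data known. All 54 were found in the counts and all 54 passed the filter on low counts. The study sequenced RNA from 3 Mettl3-deficient and 3 wild-type livers of C57BL/6 mice to compare their mRNA profiles. Mettl3 is the catalytic subunit of the enzyme complex that writes N6-methyladenosine on RNA. Age, sex and the means by which Mettl3 was made deficient, and in which cells, are not stated in the labels used here. They do not say that the 3 livers of a group came from separate animals, so p-values measure only the spread between these samples.

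An aminoacyl-tRNA synthetase joins 1 amino acid to its tRNA, initiation factors bring the ribosome to the start codon of an mRNA, elongation factors deliver charged tRNAs and move the ribosome, and termination factors release the finished protein. The rate of initiation is set through eIF2, which carries the initiator tRNA and is blocked by stress kinases, and through eIF4E, which binds the mRNA cap and is held back by the 4E-binding proteins. The hepatocyte, which secretes most plasma proteins, depends heavily on this machinery. Transcription of many synthetase genes is known to be raised by ATF4, the factor that is translated when eIF2 is phosphorylated.

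The libraries held 31960205 to 36025772 counts. Levels below are TMM-normalised CPM, counts scaled to libraries of equal effective size, and fold changes are Mettl3-deficient over wild type. Mettl3 itself had 5.96, 6.60 and 4.94 CPM in Mettl3-deficient livers, against 13.4, 14.3 and 12.1 CPM in wild-type livers (log2 fold change -1.18 ± 0.20, SE; adjusted p = 0.00797 by edgeR's quasi-likelihood test). Hepatocyte markers, 10 genes, summed to 80330 to 115200 CPM in Mettl3-deficient livers and to 171300 to 222400 CPM in wild-type livers. Of them 3 fell with edgeR, 8 with DESeq2 and 4 with limma-voom, and 1 had a log2 fold change above 0. Alb made up much of the sums, with means of 44710 CPM in Mettl3-deficient livers and 129600 CPM in wild-type livers. Cycling-cell markers summed to 59.0 to 114 CPM in Mettl3-deficient livers and 4.58 to 19.0 CPM in wild-type livers, and 6 of 6 rose. Macrophage markers rose in 3 of 8 genes, with sums of 304 to 460 CPM in Mettl3-deficient livers and 120 to 330 CPM in wild-type livers. Cholangiocyte markers rose in 2 of 7 genes, with sums of 80.7 to 232 CPM in Mettl3-deficient livers and 84.4 to 109 CPM in wild-type livers. Neutrophil markers rose in 2 of 5 genes, with sums of 6.28 to 10.2 CPM in Mettl3-deficient livers and 2.72 to 3.81 CPM in wild-type livers, and Ly6g had 0 counts in every library. Endothelial sums were 135 to 172 CPM in Mettl3-deficient livers and 144 to 231 CPM in wild-type livers, with Lyve1 lower. Stellate and fibroblast sums were 216 to 439 CPM in Mettl3-deficient livers and 168 to 308 CPM in wild-type livers. Lymphocyte sums were 4.30 to 5.07 CPM in Mettl3-deficient livers and 3.13 to 3.25 CPM in wild-type livers, and 0 of the 7 genes of either list was called by edgeR, DESeq2 or limma-voom (2 lymphocyte genes at an unadjusted p under 0.05). The part of cell composition in the results below was not tested, and in whole liver fewer cells of a type and less RNA per cell cannot be told apart. Y-linked genes had 4757 and 5036 counts in Mettl3-deficient replicates 1 and 2 and 6514 in wild type replicate 1, against 6 to 11 in the other libraries. The second principal component, with 20.2% of the variance, set wild type replicate 1 apart.

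Most of the 54 translation genes were not called different between the genotypes. Gars, the glycyl-tRNA synthetase gene, and Eif4ebp1, the gene of an inhibitor of cap-dependent initiation, rose in Mettl3-deficient livers, and 0 of 54 fell at an adjusted p under 0.05. The higher calls were 3.70% of the 54 genes, while 13.3% of all 14380 tested genes were called higher, 10.5% lower and 23.8% in either direction. At an unadjusted p under 0.05, 13 of the 54 were higher and 1, Eef2k, was lower, while over all tested genes 20.8% were higher and 18.5% lower. DESeq2 called 8 of the 54 higher and 1 lower, Eif4g2, and called 16.8% of all tested genes higher and 15% lower, so its share of higher calls among the 54 was near that of all genes.

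The median of the differences over the 54 genes changed with the library left out, and was nearest 0 without Mettl3-deficient replicate 2. The log2 fold change was above 0 in 40 of the 54 genes and below 0 in 14, with a median of 0.16 over the 54 genes and 0.01 over all tested genes. Without Mettl3-deficient replicate 2 the median of the 54 genes was 0.02, with 29 above 0 and 25 below. In that fit 11 genes changed sign. It was 0.32 without Mettl3-deficient replicate 3, from 0.15 to 0.22 in the other fits that left out 1 library, and 0.06 with a covariate for the libraries that held Y-linked counts. With library size alone as the scaling, which shifted the values of all genes by a median of 0.48, 12 of the 14 turned above 0, and Tars and Eef2k did not. The log2 fold change ran from -0.49 for Tars to 1.03 for Gars. Of the 52 genes not called, 38 had a 95% interval of the fold change that stayed within 2-fold either way, and 14 had an interval that reached 2-fold. The CPM values of the 3 Mettl3-deficient livers lay above all 3 wild-type values in 8 of the 54 genes (14.8%), against 23.9% of all tested genes, and below them in 4 (7.41%), against 21.9%. The 8 were Gars, Hars, Lars, Eif4ebp1, Eif4g3, Eef1a1, Eef1b2 and Eef1g, and the 4 were Eif3e, Eif4a2, Eif4g2 and Eef2k.

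**Figure D1:**
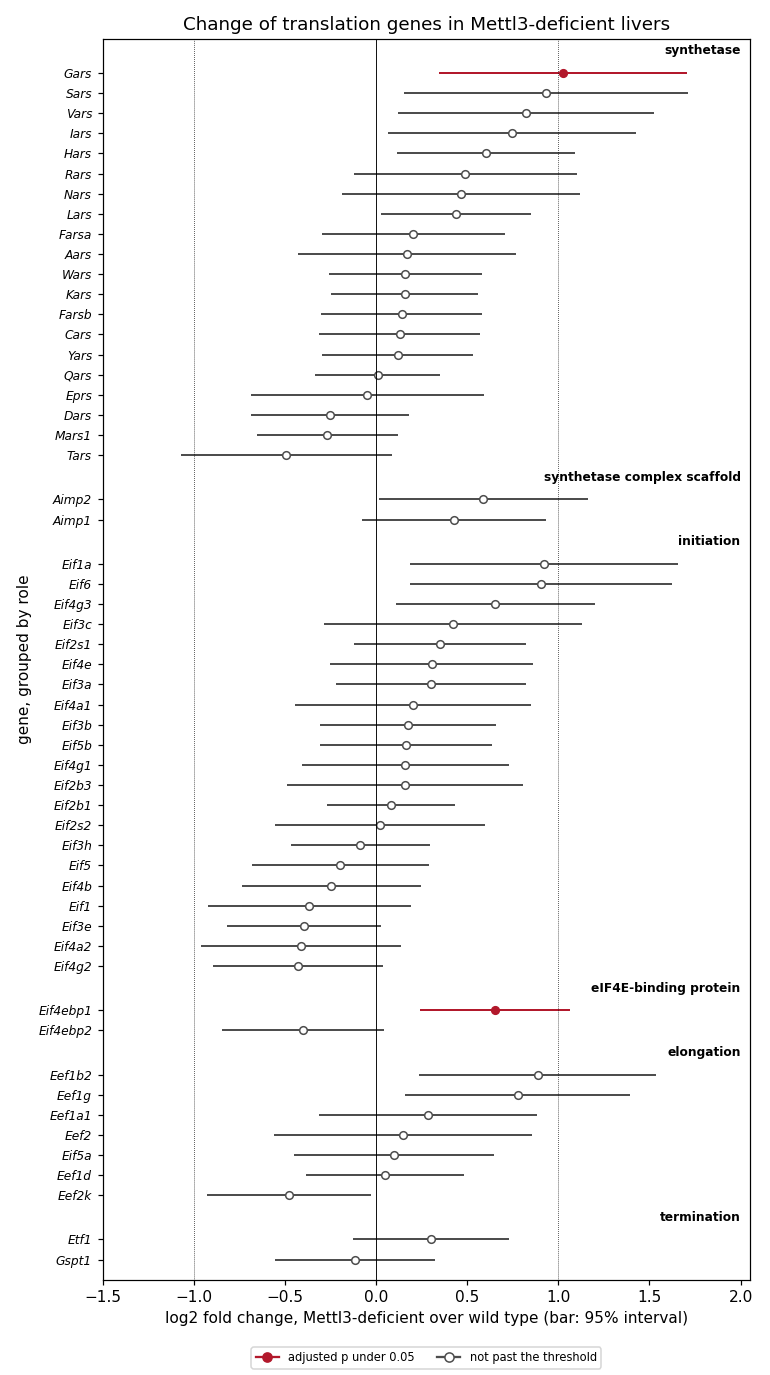
Log2 fold change, Mettl3-deficient over wild type, with its 95% interval for each of the 54 genes, grouped by role and ordered by size. The intervals of Gars and Eif4ebp1, filled, belong to the 2 genes past the adjusted threshold, and dotted lines mark 2-fold either way.

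Among the synthetases, which charge tRNAs in the cytosol, 1 of 20 rose and 0 fell, with a median log2 fold change of 0.17. Gars (Entrez 353172, chromosome 6, 55038001 to 55079504, GRCm38) encodes both the cytosolic and the mitochondrial glycyl-tRNA synthetase. It had 89.3, 142 and 58.9 CPM in Mettl3-deficient livers, against 48.8, 48.6 and 45.0 CPM in wild-type livers. The 3 wild-type livers lay close together and all 3 Mettl3-deficient livers lay above them, replicate 3 by the least. The mean was 96.7 ± 42.0 CPM in Mettl3-deficient livers and 47.5 ± 2.13 CPM in wild-type livers (SD, n = 3 each), a 2.04-fold difference (log2 fold change 1.03 ± 0.29, SE; adjusted p = 0.0395 by edgeR's quasi-likelihood test). The call was kept only without Mettl3-deficient replicate 3 among the 6 fits that left out 1 library, in which the log2 fold change ran from 0.64 to 1.28 and the adjusted p reached 0.114. The adjusted p was 0.0531 with limma-voom and 0.0869 with the Y-linked covariate.

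Sars, Vars and Iars, which charge serine, valine and isoleucine tRNAs, had the next largest log2 fold changes, 0.93, 0.82 and 0.75, and were not called (adjusted p = 0.0799, 0.0838 and 0.0976 by edgeR's quasi-likelihood test). Sars had 112, 199 and 73.5 CPM in Mettl3-deficient livers and 75.9, 64.0 and 62.1 CPM in wild-type livers. Here Mettl3-deficient replicate 3 lay among the wild-type values, and replicate 2 was the highest of the 6 libraries. Hars and Lars, for histidine and leucine, had log2 fold changes of 0.60 and 0.44 with no overlap of the groups, but missed the threshold (adjusted p = 0.0714 and 0.104 by edgeR's quasi-likelihood test). Hars held 63.9, 76.6 and 44.0 CPM in Mettl3-deficient livers, against 37.9, 42.4 and 41.2 CPM in wild-type livers. The arginine and asparagine synthetase genes Rars and Nars had log2 fold changes of 0.49 and 0.47.

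The other 12 synthetase genes lay between -0.49 and 0.20. Log2 fold changes were 0.20 for Farsa and 0.14 for Farsb, the subunits of the phenylalanine enzyme, 0.17 for Aars (alanine), 0.16 for both Kars (lysine) and Wars (tryptophan), 0.13 for Cars (cysteine), 0.12 for Yars (tyrosine) and 0.01 for Qars (glutamine). Negative values were found for Eprs, the fused glutamate and proline enzyme, at -0.05, for Dars (aspartate) at -0.25, for Mars1 (methionine) at -0.27 and for Tars (threonine) at -0.49. Tars had 117, 122 and 82.8 CPM in Mettl3-deficient livers, against 196, 139 and 117 CPM in wild-type livers, and the groups overlapped (adjusted p = 0.181 by edgeR's quasi-likelihood test). With the Y-linked covariate Tars was called lower, with a log2 fold change of -0.67 and an adjusted p of 0.0247.

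Differences among synthetases could be read without any scaling from the ratio of raw counts within a library. The pairs were picked with the values in view, so the ratios are descriptions. Gars had 1.60, 2.32 and 1.19 counts for each count of Qars in Mettl3-deficient livers, against 0.816, 0.890 and 0.879 in wild-type livers. For each count of Gars there were 1.31, 0.861 and 1.41 counts of Tars in Mettl3-deficient livers and 4.03, 2.86 and 2.60 in wild-type livers. In both ratios the groups did not overlap. Gars, the called gene, is in both, so the ratios are no separate support for a difference. The share of all gene pairs without overlap was not worked out.

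In mammals 8 of these synthetases sit in a multisynthetase complex held together by the scaffold proteins Aimp1, Aimp2 and Eef1e1. The 8 complex genes (Dars, Eprs, Iars, Kars, Lars, Mars1, Qars and Rars) had a median log2 fold change of 0.08, with 0 called by edgeR or DESeq2 and 2 higher at an unadjusted p under 0.05. The 12 other synthetase genes had a median of 0.19, with 1 called by edgeR, 3 by DESeq2 and 4 higher at an unadjusted p under 0.05. Aimp1 had a log2 fold change of 0.43 and Aimp2 of 0.59, and neither was called (adjusted p = 0.18 and 0.117 by edgeR's quasi-likelihood test). Aimp2 held 19.8, 25.9 and 13.2 CPM in Mettl3-deficient livers and 12.3, 12.6 and 14.3 CPM in wild-type livers, with overlap. Exons of Aimp2 overlap those of the antisense gene Eif2ak1 over 40.8% of their length, and exons of Aars overlap those of Exosc6 on the same strand over 23.1%. The overlap was 15.9% for Eif5b, 11.3% for Farsb, 9.8% for Hars, 7.9% for Eef1d, 6.4% for Gspt1, 5.2% for Eif4a2, 2.3% for Mars1 and 1.0% for Yars. Whether counting used strand is not stated, so reads of such overlaps cannot be told apart.

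Promoters of the synthetase genes are shown because ATF4 is known to act on many of them through the C/EBP-ATF response element. Windows from 250 bases before to 50 bases after an annotated RefSeq start (GRCm38.p6) were searched on both strands. The motif was TGATGNAA, a core of that element. Some genes had several windows, and a start can lie inside the gene. Windows were at hand for 37 of the 54 genes, and 6 of the 37 genes (16.2%) held the motif, against 4.51% of 27025 genes with a window. Counted by window, 6 of 47 (12.8%) held it, against 3.97% of 32851. The 6 were Gars, Iars, Aars, Yars and Tars among the synthetases, and Eef2k, the kinase that inhibits elongation factor 2. Capitals mark the matches in 4 of these promoters, each from 120 bases before to 20 bases after the start and written 5′ to 3′ along the gene. In these 4 promoters the matches lie on the opposite strand to the gene, so they appear as TTTCATCA or TTGCATCA.
Gars: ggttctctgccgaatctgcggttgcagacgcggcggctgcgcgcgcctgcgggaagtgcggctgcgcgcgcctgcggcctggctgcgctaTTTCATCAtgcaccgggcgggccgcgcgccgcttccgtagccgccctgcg
Iars: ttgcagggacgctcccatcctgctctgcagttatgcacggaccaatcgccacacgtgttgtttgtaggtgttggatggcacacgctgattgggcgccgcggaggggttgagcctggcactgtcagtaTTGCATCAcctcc
Aars: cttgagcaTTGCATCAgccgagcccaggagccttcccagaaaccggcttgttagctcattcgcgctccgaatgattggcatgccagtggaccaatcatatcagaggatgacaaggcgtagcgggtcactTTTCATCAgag
Tars: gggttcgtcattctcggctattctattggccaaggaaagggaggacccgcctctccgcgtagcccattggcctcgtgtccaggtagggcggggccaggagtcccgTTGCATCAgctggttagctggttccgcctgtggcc
The Gars window is chr6:55037881-55038020 on the plus strand, with its match at -30 to -23 from the start. Iars is at chr13:49682010-49682149 on the plus strand, with a match at 8 to 15. Aars is at chr8:111033722-111033861 on the plus strand, with matches at -112 to -105 and 10 to 17. This Aars start lies inside the gene, whose RefSeq coordinates begin at 111027778. The Eef2k window with the match also lies inside its gene, which begins at 120842642. Tars is at chr15:11399639-11399778 on the minus strand, with a match at -15 to -8. The 6 genes with the motif had log2 fold changes on both sides of 0, namely 1.03 for Gars, 0.75 for Iars, 0.17 for Aars, 0.12 for Yars, -0.48 for Eef2k and -0.49 for Tars, and only Gars was called. A match is a description of the letters and does not show that a factor binds there.

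None of the 21 initiation factor genes was called by edgeR (3 were higher at an unadjusted p under 0.05, and DESeq2 called Eif1a and Eif6 higher and Eif4g2 lower), with a median log2 fold change of 0.16. The largest positive differences were those of Eif1a and Eif6. Eif1a, whose product helps the small ribosomal subunit scan for the start codon, had 182, 222 and 132 CPM in Mettl3-deficient livers, against 138, 74.0 and 70.5 CPM in wild-type livers (log2 fold change 0.92 ± 0.32, SE; adjusted p = 0.0684 by edgeR's quasi-likelihood test). The highest wild-type value, in replicate 1, lay just above the lowest Mettl3-deficient value. With the Y-linked covariate Eif1a was called higher (log2 fold change 0.71, adjusted p = 0.0278). Eif6, which keeps the large ribosomal subunit from joining too early, had 130, 174 and 70.4 CPM in Mettl3-deficient livers and 56.5, 71.8 and 71.3 CPM in wild-type livers (log2 fold change 0.91, adjusted p = 0.0682 by the same test). Mettl3-deficient replicate 3 lay within the wild-type values, while replicates 1 and 2 lay far above them. Eif1, a scanning factor that guards start codon choice, had 231, 197 and 312 CPM in Mettl3-deficient livers and 275, 316 and 363 CPM in wild-type livers, a log2 fold change of -0.37 with overlap.

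Genes of the initiator tRNA step had small differences. Eif2s1 and Eif2s2, which encode the alpha and beta subunits of eIF2, had log2 fold changes of 0.35 and 0.02. Eif2b1 and Eif2b3, subunits of the factor that reloads eIF2 with GTP, had 0.08 and 0.16. Eif5, which triggers GTP hydrolysis by eIF2, had -0.20, and Eif5b, which joins the ribosomal subunits, had 0.16. In the scaffold eIF3, log2 fold changes were 0.30 for Eif3a, 0.17 for Eif3b, 0.42 for Eif3c, -0.09 for Eif3h and -0.40 for Eif3e. Eif3e was 1 of the genes whose groups did not overlap, with 71.7, 80.5 and 75.4 CPM in Mettl3-deficient livers, against 122, 83.2 and 93.9 CPM in wild-type livers, but it was not called (adjusted p = 0.144 by edgeR's quasi-likelihood test).

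Among genes of the cap-binding factor eIF4F and its helicase, edgeR called 0 of 7 in either direction (Eif4g3 had an unadjusted p under 0.05, and DESeq2 called Eif4g2), and the values below 0, those of Eif4g2, Eif4a2 and Eif4b, turned above 0 with library size alone. Eif4g2, which encodes a relative of eIF4G that lacks the eIF4E-binding part, had 391, 411 and 344 CPM in Mettl3-deficient livers, against 521, 531 and 491 CPM in wild-type livers (log2 fold change -0.43 ± 0.20, SE; adjusted p = 0.15 by edgeR's quasi-likelihood test). All 3 Mettl3-deficient values were below all wild-type values, and DESeq2 called the gene lower. Eif4g3, a scaffold paralog of Eif4g1, had 66.4, 99.1 and 55.2 CPM in Mettl3-deficient livers, against 49.6, 39.5 and 51.0 CPM in wild-type livers (log2 fold change 0.66 ± 0.23, SE; adjusted p = 0.0765 by the same edgeR test). Eif4g1, the main scaffold, had a log2 fold change of 0.16. Measured as raw counts for each count of Eif4g2, Eif4g1 stood at 1.24, 1.38 and 1.25 in Mettl3-deficient livers and at 0.653, 0.932 and 1.0 in wild-type livers. The same ratio for Eif4g3 was 0.170, 0.241 and 0.161 in Mettl3-deficient livers and 0.0952, 0.0745 and 0.104 in wild-type livers. Neither ratio overlapped between the groups. The RNA helicase genes Eif4a1 and Eif4a2 had log2 fold changes of 0.20 and -0.41, the helicase cofactor Eif4b -0.25 and the cap-binding protein Eif4e 0.30.

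The 4E-binding proteins, which hold eIF4E away from eIF4G until mTORC1 phosphorylates them, had 1 of 2 genes called. Eif4ebp1 (Entrez 13685, chromosome 8, 27260327 to 27275656, GRCm38) had 69.5, 93.7 and 66.4 CPM in Mettl3-deficient livers, against 47.4, 45.1 and 53.5 CPM in wild-type livers. Each Mettl3-deficient liver lay above each wild-type liver. The mean was 76.5 ± 14.9 CPM in Mettl3-deficient livers and 48.6 ± 4.34 CPM in wild-type livers (SD, n = 3 each), 1.57-fold higher (log2 fold change 0.65 ± 0.18, SE; adjusted p = 0.0329 by edgeR's quasi-likelihood test). Like that of Gars, the call was kept without Mettl3-deficient replicate 3 and lost in the 5 other fits without 1 library, with log2 fold changes of 0.48 to 0.74 and an adjusted p of up to 0.12. The adjusted p was 0.055 with the Y-linked covariate and 0.0628 with the replicate number as a block. Eif4ebp2 had 44.2, 43.7 and 55.2 CPM in Mettl3-deficient livers and 48.7, 69.2 and 71.0 CPM in wild-type livers, a log2 fold change of -0.40 that was not called (adjusted p = 0.158 by the same edgeR test) and that was 0.0756 with library size alone. Without wild type replicate 1 Eif4ebp2 was called lower. Raw counts of Eif4ebp1 for each count of Eif4ebp2 were 1.57, 2.14 and 1.20 in Mettl3-deficient livers, against 0.973, 0.652 and 0.754 in wild-type livers, with no overlap. For each count of Eif4e there were 1.0, 1.22 and 1.56 counts of Eif4ebp1 in Mettl3-deficient livers and 0.800, 0.880 and 1.27 in wild-type livers, and these overlapped.

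Elongation genes include the most abundant of the 54. Scaled by exon length (RPKM), the mean of Eef1a1 was 2493 RPKM in Mettl3-deficient livers and 2047 RPKM in wild-type livers. Eef2 had 531 RPKM in Mettl3-deficient livers and 480 RPKM in wild-type livers, and Eif5a had 242 RPKM in Mettl3-deficient livers and 226 RPKM in wild-type livers. The least abundant was Eef2k, with 1.24 RPKM in Mettl3-deficient livers and 1.74 RPKM in wild-type livers. The initiation genes Eif4a1 and Eif1 were at levels near that of Eif5a. Eif4a1 had 222 RPKM in Mettl3-deficient livers and 193 RPKM in wild-type livers, and Eif1 had 186 RPKM in Mettl3-deficient livers and 241 RPKM in wild-type livers. Of the 7 elongation genes edgeR called 0, with 2 higher and 1 lower at an unadjusted p under 0.05, and DESeq2 called 2 higher. Eef1a1, Eif1, Eif5a and several other members have processed copies elsewhere in the genome, and since the handling of reads that match several places is not stated, those levels are uncertain to that extent.

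The 4 subunit genes of elongation factor 1 had unequal differences. Eef1a1, which carries charged tRNA to the ribosome, had 3860, 5348 and 4208 CPM in Mettl3-deficient livers, against 3621, 3736 and 3658 CPM in wild-type livers. Its log2 fold change was 0.29, with a 95% interval of -0.31 to 0.88, and it was not called although the groups did not overlap (adjusted p = 0.441 by edgeR's quasi-likelihood test). Eef1b2, a nucleotide exchange subunit that reloads Eef1a1 with GTP, had 276, 490 and 257 CPM in Mettl3-deficient livers, against 188, 186 and 179 CPM in wild-type livers (log2 fold change 0.89 ± 0.28, SE; adjusted p = 0.0532 by the same edgeR test). Eef1g, which anchors the exchange complex, had 319, 453 and 233 CPM in Mettl3-deficient livers, against 199, 203 and 184 CPM in wild-type livers (log2 fold change 0.78 ± 0.27, SE; adjusted p = 0.0677 by the same edgeR test). Both missed the threshold, with wild-type values close together and Mettl3-deficient values above them and spread widely. DESeq2 called both higher, as it did Gars, Sars, Vars, Eif1a, Eif4ebp1 and Eif6.

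Eef1d, the other exchange subunit, had 93.5, 130 and 92.8 CPM in Mettl3-deficient livers and 94.3, 109 and 102 CPM in wild-type livers, a log2 fold change of 0.05 with a fully overlapping spread. Raw counts of Eef1b2 for each count of Eef1d were 2.95, 3.78 and 2.77 in Mettl3-deficient livers, against 2.0, 1.71 and 1.75 in wild-type livers. Those of Eef1g for each count of Eef1d were 3.42, 3.48 and 2.52 in Mettl3-deficient livers, against 2.11, 1.87 and 1.80 in wild-type livers. Neither ratio overlapped between the groups, and the means were 1.74-fold higher for Eef1b2 and 1.63-fold higher for Eef1g in Mettl3-deficient livers.

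**Figure D2:**
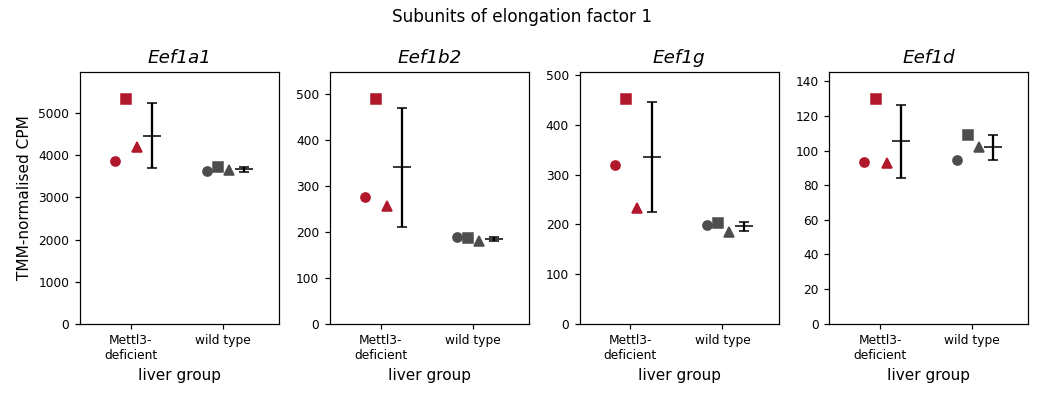
TMM-normalised CPM of the 4 elongation factor 1 genes in each Mettl3-deficient and wild-type liver (circle, square and triangle for replicates 1, 2 and 3), with mean and SD bars and an axis from 0 in each panel. Mettl3-deficient values lie above wild-type values for Eef1a1, Eef1b2 and Eef1g and overlap them for Eef1d, and Mettl3-deficient replicate 2 is highest in each panel.

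Eef2, which moves the ribosome along the mRNA, had 1363, 2133 and 1424 CPM in Mettl3-deficient livers and 1072, 1649 and 1724 CPM in wild-type livers, with a log2 fold change of 0.15. Its kinase gene Eef2k had 7.92, 9.30 and 8.71 CPM in Mettl3-deficient livers, against 14.3, 10.6 and 11.2 CPM in wild-type livers (log2 fold change -0.48 ± 0.19, SE; adjusted p = 0.106 by edgeR's quasi-likelihood test). The groups did not overlap for Eef2k and did for Eef2. Eif5a, whose product carries the modified amino acid hypusine and helps ribosomes through difficult stretches, had 484, 589 and 382 CPM in Mettl3-deficient livers and 419, 492 and 448 CPM in wild-type livers, with a log2 fold change of 0.10. Of the termination factors, Etf1, which recognises stop codons, had a log2 fold change of 0.30, and its GTPase partner Gspt1 of -0.12. Neither was called by edgeR or DESeq2, or had an unadjusted p under 0.05.

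The Mettl3-deficient livers differed from one another in these genes in a repeated order, a pattern picked out after the values were seen. Mettl3-deficient replicate 2 held the highest value of its group in 50 of the 54 genes (92.6%), against 37.7% of all tested genes. Mettl3-deficient replicate 3 held the lowest in 45 (83.3%), against 38.0% of all tested genes. Among the 20 synthetase genes the numbers were 19 and 20. The order was also frequent in related lists: replicate 2 was highest and replicate 3 lowest in 75.0% each of 12 other elongation and termination genes, in 66.7% and 73.3% of 30 other initiation factor genes, and in 58.8% and 47.1% of 17 mitochondrial synthetase genes. The median log2 ratio of the 54 genes to the wild-type mean was 0.17, 0.49 and -0.13 in Mettl3-deficient replicates 1, 2 and 3, and 0.03, 0.03 and -0.07 in wild type replicates 1, 2 and 3. The median coefficient of variation of the 54 genes was 22.6% among Mettl3-deficient livers and 9.94% among wild-type livers, while over all tested genes it was 19.2% among Mettl3-deficient livers and 19.1% among wild-type livers. These genes share their libraries, so the counts are a description and carry no test.

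**Figure D3:**
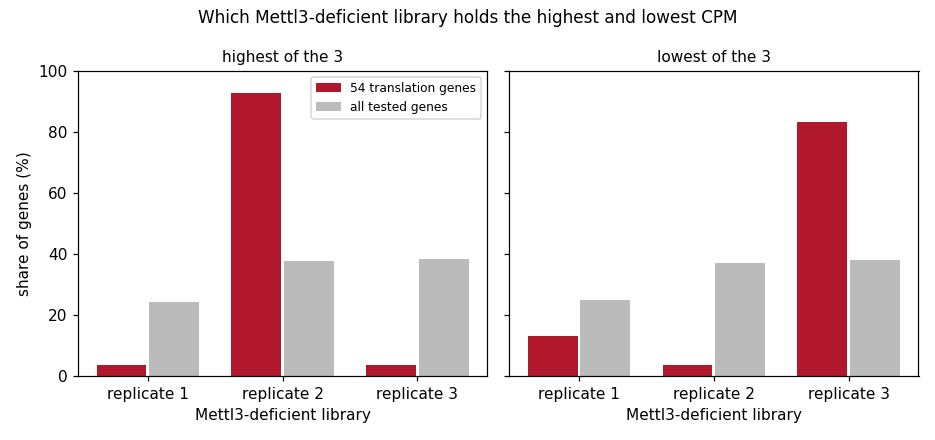
Share of the 54 genes, and of all tested genes, for which each Mettl3-deficient library held the highest (left) or the lowest (right) CPM of its group. Replicate 2 is highest for 92.6% of the 54 genes and replicate 3 lowest for 83.3%, against 37.7% and 38.0% of all tested genes.

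The number of the 54 genes called higher changed with the library left out, as did that over all genes. It was 13 without Mettl3-deficient replicate 3, where 13.1% of all tested genes were called higher. It was 0 without replicate 1, where 5.88% of all genes were called higher, and 0 without replicate 2, where 7.63% were. The 13 were Gars, Hars, Iars, Rars, Sars, Vars, Aimp2, Eif1a, Eif4ebp1, Eif4g3, Eif6, Eef1b2 and Eef1g. The number called higher was 1 (Eif1a), 0 and 0 without wild type replicates 1, 2 and 3, where 13.1%, 5.68% and 6.28% of all tested genes were called higher. Mettl3-deficient replicates 1 and 2, and wild type replicate 1, were the libraries with 4757 or more Y-linked counts. Mettl3-deficient replicate 2 had the lowest hepatocyte marker sum of its group, 80330 CPM, against 101400 and 115200 CPM in Mettl3-deficient replicates 1 and 3. It was also lowest for cholangiocyte (80.7 against 169 and 232 CPM), stellate and fibroblast (216 against 301 and 439 CPM) and cycling markers (59.0 against 114 and 71.0 CPM). It was highest for macrophage (460 against 304 and 337 CPM) and endothelial markers (172 against 135 and 140 CPM), and lay between the other Mettl3-deficient livers for lymphocyte and neutrophil markers. The part of these differences in the order of the libraries was not tested.

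**Figure D4:**
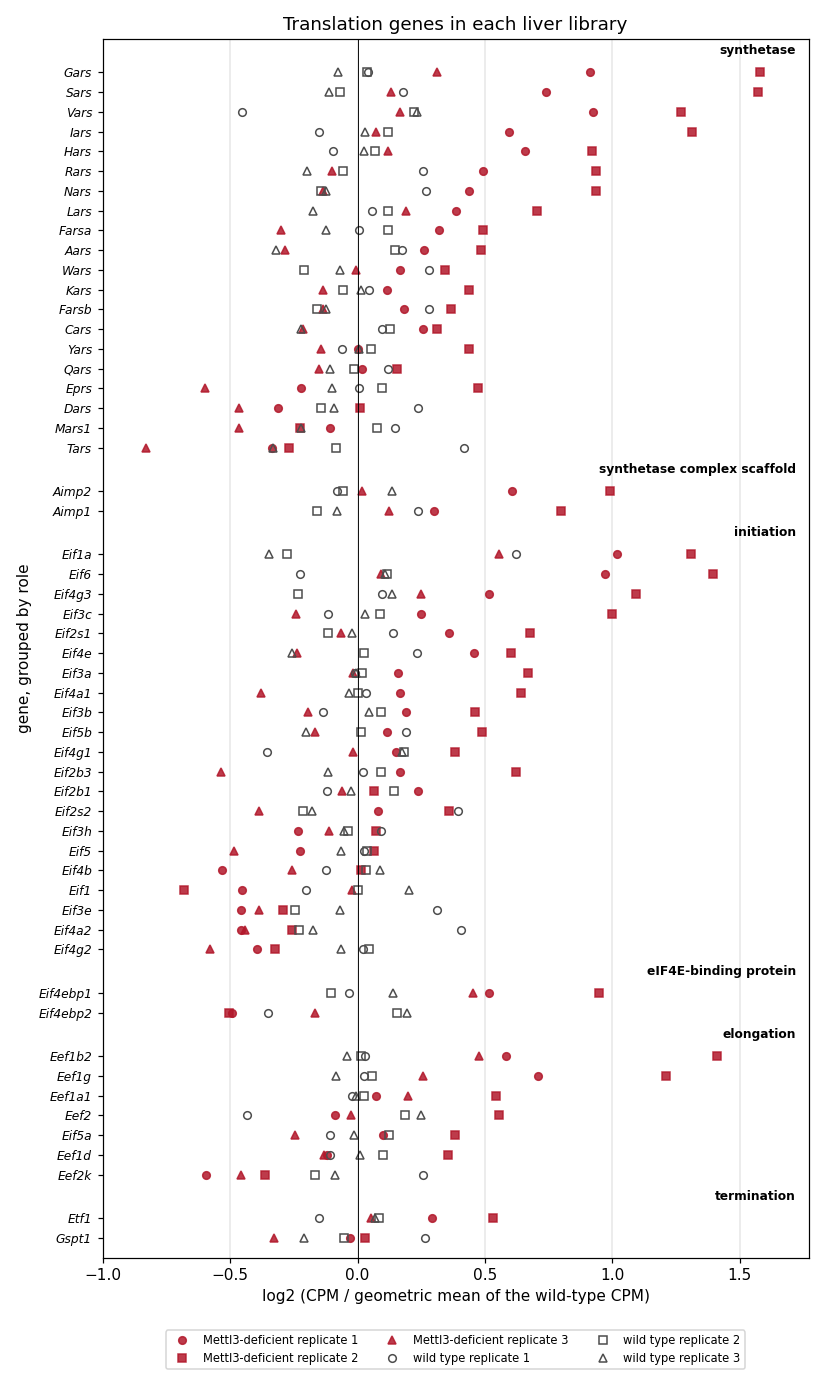
Log2 ratio of each library's CPM to the geometric mean of the wild-type CPM, for each of the 54 genes grouped by role. Filled symbols are Mettl3-deficient and open symbols wild-type livers, and filled squares (Mettl3-deficient replicate 2) stand furthest right in 40 of the 54 genes.

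Genes known to be raised by ATF4, together with ATF4 itself, a list of 18 named genes, were placed beside the synthetases. In this list 9 of 18 rose and 0 fell (0 lower also at an unadjusted p under 0.05 and with DESeq2), with a median log2 fold change of 2.18. Over all tested genes 13.3% were called higher and 10.5% lower. DESeq2 called 12 of the 18 higher, and limma-voom 5, without Psat1 and Aldh18a1. Over all tested genes these tools called 16.8% and 12.1% higher. Atf4 itself was not called, with 78.7, 121 and 38.3 CPM in Mettl3-deficient livers and 76.3, 68.7 and 65.5 CPM in wild-type livers (log2 fold change 0.18, adjusted p = 0.746 by edgeR's quasi-likelihood test). The mitochondrial serine enzyme gene Shmt2, named after its values were seen, had lower CPM in each Mettl3-deficient liver than in each wild-type liver and was not called (log2 fold change -0.49, adjusted p = 0.129 by the same edgeR test). Psat1, an enzyme of serine synthesis, had 13.2, 37.1 and 3.06 CPM in Mettl3-deficient livers, against 0.568, 0.424 and 0.333 CPM in wild-type livers (log2 fold change 5.32 ± 0.96, SE; adjusted p = 0.012 by edgeR's quasi-likelihood test). Aldh18a1, which begins proline synthesis, had 16.7, 49.6 and 6.26 CPM in Mettl3-deficient livers, against 1.31, 1.27 and 0.813 CPM in wild-type livers (log2 fold change 4.41, adjusted p = 0.0118). In both genes replicate 2 was the highest and replicate 3 the lowest of the Mettl3-deficient livers, the order seen in the synthetases. Replicate 2 was highest in 14 and replicate 3 lowest in 12 of the 18 genes, against 37.7% and 38.0% of all tested genes. The hormone gene Fgf21 rose as well (log2 fold change 3.41, adjusted p = 0.00732). The cystine transporter gene Slc7a11 had 0.347, 0.531 and 0.557 CPM in Mettl3-deficient livers and 0 counts in all wild-type livers, at least 13.3-fold higher when that group is set at 3 counts in all. The calls of Psat1 and Aldh18a1 were lost without wild type replicate 2 or 3 (highest adjusted p = 0.0597 and 0.0573), and those of Fgf21 and Slc7a11 were kept in all 6. The eIF2 kinases and phosphatase subunits, which act before ATF4, had 0 of 10 called by edgeR or DESeq2 and 1 higher at an unadjusted p under 0.05, with log2 fold changes from -0.47 to 0.79.

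Mitochondria use synthetases of their own, and 6 of 17 of these genes were called. On the cytosolic side 1 of 20 was called, and over all tested genes 23.8% were. At an unadjusted p under 0.05 in edgeR, 5 of the 17 were higher and 2 lower, and 6 of the 20 were higher and 0 lower. The difference between the lists was not tested, and the 1 cytosolic call, Gars, also encodes the mitochondrial glycyl-tRNA synthetase. Pars2, for proline, had 11.8, 13.2 and 10.2 CPM in Mettl3-deficient livers, against 3.41, 2.86 and 2.48 CPM in wild-type livers (log2 fold change 2.01 ± 0.23, SE; adjusted p = 0.00244 by edgeR's quasi-likelihood test). Ears2, for glutamate, had 31.3, 35.2 and 24.9 CPM in Mettl3-deficient livers, against 16.2, 12.3 and 11.1 CPM in wild-type livers (log2 fold change 1.21, adjusted p = 0.00836). Wars2 rose by 1.21 and Yars2 by 0.74 on the log2 scale (adjusted p = 0.0091 and 0.0228), as did Tars2, named after its value was seen, by 0.66 (adjusted p = 0.0407). Mars2, for methionine, fell to 1.07, 1.06 and 0.659 CPM in Mettl3-deficient livers, against 2.66, 4.46 and 3.51 CPM in wild-type livers (log2 fold change -1.93 ± 0.36, SE; adjusted p = 0.0108). The cytosolic gene for the same amino acid was not called in any of these cases: Eprs had -0.05, Wars 0.16, Yars 0.12, Tars -0.49 and Mars1 -0.27. The median of the 17 mitochondrial genes was -0.05, with 9 of the 17 below 0. Pars2, Ears2, Wars2 and Mars2 kept their call in all 6 fits without 1 library. Yars2 lost it without replicate 1 or 2 of the Mettl3-deficient livers or replicate 2 or 3 of the wild-type livers (adjusted p up to 0.0878), and Tars2 in each fit except that without Mettl3-deficient replicate 3 (adjusted p up to 0.124). Tars2 also lost its call with limma-voom, with the replicate block and with the Y-linked covariate. Among 9 mitochondrial translation factors, the elongation factor gene Tsfm rose by 1.03 and the initiation factor gene Mtif3 fell by 0.64 on the log2 scale (adjusted p = 0.00818 and 0.0239). Tsfm kept its call in all 6 fits, while Mtif3 lost it without Mettl3-deficient replicate 1 or 2 or wild type replicate 2 (adjusted p up to 0.0911), with the replicate block (0.0506) and with library size alone (log2 fold change -0.17).

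**Figure D5:**
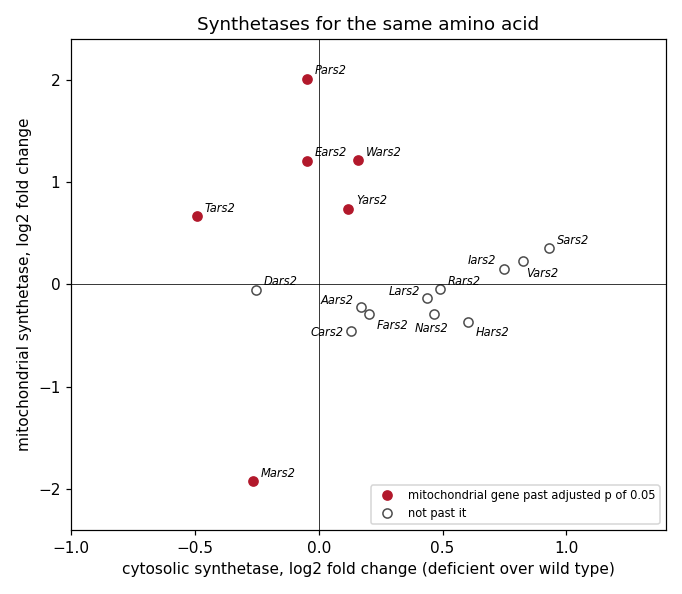
Log2 fold change, Mettl3-deficient over wild type, of each of 17 mitochondrial synthetase genes (vertical) against the cytosolic gene for the same amino acid (horizontal), with filled points for mitochondrial genes past an adjusted p of 0.05. Pars2 at 2.01 and Ears2 at 1.21 share the fused cytosolic gene Eprs at -0.05, and Mars2 at -1.93 lies furthest below 0.

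Of all tested genes edgeR called 13.3% higher and 10.5% lower. Among 30 other initiation factor genes 4 fell and 0 rose, also with DESeq2 (1 was higher at an unadjusted p under 0.05). The largest of these was Eif4ebp3, the third 4E-binding protein, at 28.5, 29.0 and 30.0 CPM in Mettl3-deficient livers, against 45.8, 127 and 213 CPM in wild-type livers (log2 fold change -2.14 ± 0.49, SE; adjusted p = 0.0228 by edgeR's quasi-likelihood test). Its wild-type values spread widely, and its call was lost without any 1 Mettl3-deficient library or wild type replicate 2 (adjusted p up to 0.0886). The Eif4ebp3 call was also lost with the Y-linked covariate. Paip1 and Paip2, partners of the poly(A)-binding protein, and Mcts1, a factor of ribosome recycling and reinitiation, fell by 0.64, 0.82 and 0.69 on the log2 scale (adjusted p = 0.0171, 0.0159 and 0.043). Scaling by library size alone took away these 3 calls, with log2 fold changes of -0.16, -0.36 and -0.23. Paip1 and Paip2 also lost theirs without Mettl3-deficient replicate 1 or wild type replicate 3, and Paip1 without wild type replicate 2 (adjusted p up to 0.0736 and 0.0574). Mcts1 kept its call only without Mettl3-deficient replicate 3 among the 6 fits (adjusted p up to 0.116). It also lost the call with upper-quartile factors and with the Y-linked covariate.

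Among 12 tested of 13 other elongation and termination genes 3 rose and 0 fell (1 lower at an unadjusted p under 0.05 and 1 with DESeq2). The edgeR shares over all tested genes were 13.3% higher and 10.5% lower. Pelo, which rescues stalled ribosomes, had 52.4, 52.8 and 21.3 CPM in Mettl3-deficient livers, against 15.5, 15.2 and 15.2 CPM in wild-type livers (log2 fold change 1.46 ± 0.32, SE; adjusted p = 0.0179 by edgeR's quasi-likelihood test). Dph2, an enzyme that makes diphthamide on elongation factor 2, and Gspt2 rose by 1.02 and 1.80 (adjusted p = 0.0481 and 0.0392), and Gspt2 is a near-identical copy of Gspt1 whose reads are uncertain. Pelo lost its call without replicate 1 or 2 of the Mettl3-deficient livers or replicate 2 or 3 of the wild-type livers (adjusted p up to 0.0649). Dph2 and Gspt2 kept theirs only without Mettl3-deficient replicate 3 among the 6 fits (adjusted p up to 0.149 and 0.137). Both calls were also lost with limma-voom and with the Y-linked covariate, and that of Dph2 with the replicate block. Among 17 genes of mTORC1 and 4E-binding protein control 2 fell and 0 rose (1 higher at an unadjusted p under 0.05 and 1 with DESeq2). Pdcd4, an inhibitor of eIF4A, had 25.2, 20.1 and 34.4 CPM in Mettl3-deficient livers, against 130, 68.7 and 67.3 CPM in wild-type livers (log2 fold change -1.74 ± 0.31, SE; adjusted p = 0.00955), and the call was kept in all 6 fits. The S6 kinase gene Rps6kb1 fell by 0.53 on the log2 scale (adjusted p = 0.0354). This call was kept in 1 of the 6, without Mettl3-deficient replicate 3 (adjusted p up to 0.11). It was lost with library size alone (log2 fold change -0.06), with the replicate block and without a low-count filter.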

How the data were processed

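The submitters' processing notes name HISAT2, featureCounts and mm10. Versions, annotation, strand setting and the treatment of multiply mapped reads are not stated there. The authors deposited raw, unnormalized counts for 27179 genes under Entrez identifiers. RefSeq's GRCm38.p6 annotation gave symbols and coordinates for 25275 of them. RPKM used exon lengths of GENCODE transcripts that match RefSeq.

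Groups came from the genotype labels. All genes were tested with edgeR 4.0.16 (R 4.3.3): TMM factors, filterByExpr (minimum count 10, minimum total 15; 14380 genes kept), a robust two-sided quasi-likelihood F test with genotype as the only term, and Benjamini-Hochberg adjustment over all 14380 genes. Genes were called at an adjusted p under 0.05, and each adjusted p comes from this test unless another tool is named. The procedure was tested on simulated data. Libraries of a group differed by more than sampling noise, with a chi-square per degree of freedom of 17.1 or more.

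The 54 genes, the other lists, the cell type markers, the tests and the alternatives were chosen with earlier results of these data known. The text names each of the 54 genes, Mettl3, and up to 4 called genes in each direction by p from each other list, except for items that are not reported here. Values in every liver were planned for called genes and the 4 uncalled genes with the highest RPKM. The other genes given in every liver, the count ratios and the order of libraries were chosen after their values were seen.

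Alternatives were RLE and upper-quartile factors, library size alone, DESeq2 1.42.0, limma-voom (limma 3.58.1), no low-count filter, CPM of 1 or more in 3 samples as the filter, the replicate block, removal of the 20 most abundant genes, a covariate for libraries with over 100 Y-linked counts, and each library left out in turn.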

Additional observations from a re-analysis of the deposited data

How the results depend on the processing

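With 3 livers a group, the counts of calls among the 54 genes depended on the libraries and the tool, and 52 of the 54 genes were not called. The 2 higher calls became 25 with library size alone (where 33.4% of all genes were called higher) and 8 with DESeq2. They became 3 with upper-quartile factors and 3 without a low-count filter, where Eef1b2 was gained. The single higher call was Eif4ebp1 with limma-voom, Gars with the block on replicate number and Eif1a with the Y-linked covariate. The number called higher ran from 0 to 13 when 1 library was left out. The 0 lower calls became 1 with DESeq2 and 1 with the covariate, and ran from 0 to 1. Calls over all genes, 3420, became 5405 with library size alone and ran from 1382 to 3514 with a library left out, with the fewest without Mettl3-deficient replicate 1. Scaling by library size alone shifted the median over all genes by 0.48 on the log2 scale, to 0.49, made 89.0% of calls higher, against 55.7% with TMM, and left 14 of the 54 genes below the moved median, as many as were below 0 with TMM. It gave values above 0 for Dars (0.23), Eprs (0.45), Mars1 (0.21), Eif1 (0.10), Eif3e (0.0754), Eif3h (0.39), Eif4a2 (0.059), Eif4b (0.24), Eif4ebp2 (0.0756), Eif4g2 (0.0511), Eif5 (0.29) and Gspt1 (0.36). Qars turned to -0.0048 with RLE factors and with DESeq2. With the covariate Aars turned to -0.0075, Qars to -0.0629, Eif2s2 to -0.18 and Eif2b3 to -0.0658. Leaving out 1 library gave log2 fold changes on both sides of 0 for 14 genes: Eprs from -0.40 to 0.16, Eif2b1 from -0.0002 to 0.16, Aars from -0.0035 to 0.36, Kars from -0.0044 to 0.28, Qars from -0.0673 to 0.0841, Yars from -0.0699 to 0.23, Eif2s2 from -0.16 to 0.24, Eif2b3 from -0.14 to 0.41, Eif4a1 from -0.0793 to 0.42, Eif5a from -0.0656 to 0.24, Eif5b from -0.026 to 0.31, Eef1d from -0.13 to 0.13, Eef2 from -0.0882 to 0.27 and Gspt1 from -0.22 to 0.0249. The cause of these changes was not tested. The labels do not say whether the replicate numbers pair the livers. Correlations of deviations between livers of the same number were 0.08, -0.02 and 0.03. With 3 livers a group, these cannot show whether the livers were paired. The replicate block called 2683 of all genes. Eef1a1 was among the 20 most abundant genes and has no value where these were removed.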
